A study of Homo sapiens with 18 samples.

Results

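The integrated stress response is the pathway by which cells slow most protein synthesis and raise the amount of a few transcription factors when amino acids run short, proteins misfold or heme is lacking. Sensor kinases phosphorylate the translation factor eIF2alpha. This lowers translation in general, while the mRNA of *ATF4*, which carries short reading frames ahead of its coding sequence, is translated more. ATF4 then activates genes of amino acid synthesis, transport and tRNA charging, together with regulators that end the response or, when it persists, promote cell death. In the developing and adult pancreas the pathway is known above all from its kinase PERK, the product of *EIF2AK3*, whose loss impairs insulin-producing cells.

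The 10 genes described here are *ATF4*, *ATF5*, *DDIT3*, *TRIB3*, *CHAC1*, *ASNS*, *PSAT1*, *PHGDH*, *SESN2* and *PPP1R15A*. They were taken by gene symbol from the 21944 genes of the deposited table, and all 10 were listed at 3, 6 and 24 h, as were 18672 genes in all. The RNA came from pancreatic progenitors at day 19 of differentiation from human embryonic stem cells, detached with accutase and reseeded either on the low-adhesion laminin LN411 or on fibronectin (FN), for 3, 6 or 24 h. Each matrix was sampled 3 times at each time, which gave 6 groups and 18 samples. The growth protocol names NGN3-GFP cells made from the SA121 line, which carry a reporter for *NEUROG3*, as does the paper for this experiment, whereas the cell line label reads HUES4. Accutase, reseeding and the culture plates were shared by the LN411 and FN samples. The comparisons of LN411 with FN were not used here, since they are the authors' own results. What follows describes the authors' mean normalized count of each gene, 1 value over all samples and times that carries no error of its own.

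The cells were labelled as pancreatic progenitors, and 10 of 10 fixed progenitor markers were listed, 9 of them above the median of all genes. *GP2* had the highest value at 135959, and *PTF1A* the lowest at 12.5. Markers of other cell types were also present. *AFP*, a fetal liver gene, reached 26676, and 9 of the 13 listed genes of that list of 16 lay above the median of all genes. *POU5F1*, *NANOG* and *PTPRC*, markers of stem cells and blood cells, were not in the table, *INS* was listed at 24 h alone with 8.32, and the part of other cells in the values below was not tested.

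The 10 genes differed widely in level. *PHGDH* and *ATF4* had mean normalized counts above those of 98.6% and 97.2% of listed genes, and *ASNS* had the lowest of the 10. The highest and the lowest were 696-fold apart, and 121-fold apart without *ASNS*, whose canonical transcript lies almost wholly in exons of another gene. The median of the 10 genes was 1022, against 297 for all 21944 genes. Together they made up 0.0929% of the summed mean counts. In all, 8 of the 10 lay above the median of all genes, and 4 lay above the upper quartile of 2071. Against protein-coding genes alone, whose median was 1077, 5 of the 10 lay above.

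**Figure D1:**
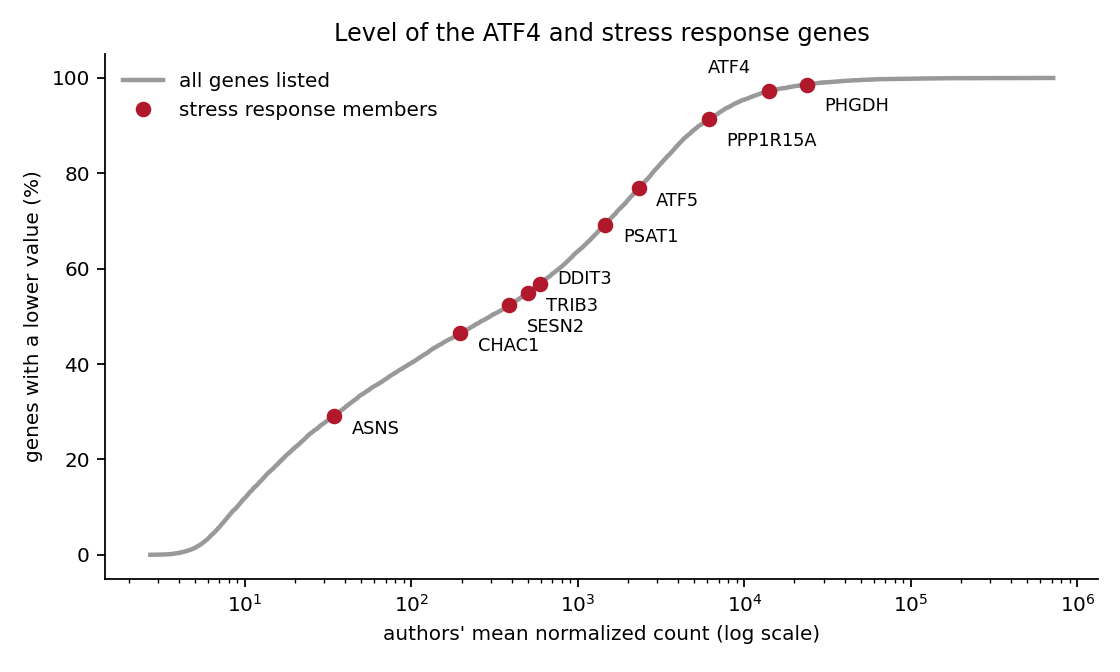
Authors' mean normalized count of each of the 10 stress response genes (red points, log axis) on the cumulative curve of all 21944 listed genes (grey). The vertical axis gives the percentage of genes with a lower value. The points run from *ASNS* at 29.1% to *PHGDH* at 98.6%.

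Among the transcription factors, *ATF4* itself was the most abundant. Its mean normalized count was 14072, higher than that of 97.2% of genes. *ATF5*, a close relative with overlapping targets, had 2314 and exceeded 76.8% of genes. *DDIT3*, which encodes the death-promoting factor CHOP, had 588 and exceeded 56.7%. *ATF4* was thus 6.08-fold above *ATF5* and 23.9-fold above *DDIT3* in mean count. Since longer transcripts yield more reads, levels of different genes were also set per kilobase of the longest annotated transcript. On that scale *ATF4* had 6970, 6.05-fold the 1153 of *ATF5* and 12.6-fold the 551 of *DDIT3*. Counting either strand, 35.9% of the canonical *DDIT3* transcript and 13.5% of that of *ATF5* are shared with other genes, against 0% for *ATF4*. The effect of this on the gaps was not tested.

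The enzymes were the most unequal group. PHGDH performs the first step of serine synthesis from glucose and PSAT1 the step after it. *PHGDH* had the highest mean normalized count of the 10 genes, 23755, above 98.6% of all genes. *PSAT1* had 1456, above 69.3%, and was level with *PSPH*, the gene of the last step, at 1455. Per kilobase of the longest transcript, *PHGDH* had 7470 and *PSAT1* 660, an 11.3-fold gap. The first step of the pathway therefore stood well above the other two in transcript level on both scales. The size of the gap rested on the transcript length chosen, and it was 3.92-fold per kilobase of all exons annotated for *PHGDH* and *PSAT1*.

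*ASNS*, which makes asparagine from aspartate and is among the best known targets of ATF4, was the exception. Its mean normalized count was 34.1, above 29.1% of genes, and it had 14.3 per kilobase of the longest transcript. The canonical transcript of this gene lies almost wholly in exons of another gene on the same strand, as described further on. Over all exons annotated for *ASNS*, the shared part is 49.3%.

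CHAC1 degrades glutathione. *CHAC1* had a mean normalized count of 196, above 46.4% of genes. Its paralog *CHAC2* had nearly the same value, 192. *GGCT*, the other gene of gamma-glutamyl breakdown in the list, had 967, so that *CHAC1* and *CHAC2* were the low members of that trio.

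The regulators that feed back on the pathway differed from one another in the same way. PPP1R15A, also known as GADD34, brings protein phosphatase 1 to eIF2alpha and so ends the response. *PPP1R15A* had a mean normalized count of 6124, above 91.3% of genes, close to the 6899 of *PPP1R15B*, which is known as the form made without stress. The order of this pair turned with the scale. Per kilobase of the longest transcript *PPP1R15A* was higher, at 1883 against 1312, and per kilobase of all exons, at 1784 against 739. Per kilobase of coding length *PPP1R15B* was higher, at 3225 against 2958. TRIB3 is a pseudokinase that ATF4 induces and that restrains ATF4 in turn. *TRIB3* had 500, above 54.9% of genes. It lay between *TRIB1* at 2061 and *TRIB2* at 426 in mean normalized count. SESN2 restrains mTORC1 when leucine is scarce. *SESN2* had 386, the lowest of the sestrins, whereas *SESN1* had 3110 and *SESN3* 9755. Per kilobase of the longest transcript, *SESN2* at 111 was still below *SESN1* at 549 and *SESN3* at 1020.

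Ordered by level per kilobase of the longest transcript, the 10 genes ran from *PHGDH* through *ATF4*, *PPP1R15A*, *ATF5*, *PSAT1*, *DDIT3*, *TRIB3*, *CHAC1* and *SESN2* to *ASNS*. Whether neighbours in this order differed beyond the spread between samples could not be assessed, as the mean has no error. On this scale 9 of the 10 lay above the median of all genes, 99.6 per kilobase. The median of the 10 was 606. Per kilobase of all exons, *ATF4* at 5385 stood above *PHGDH* at 2586, and *SESN2* at 111 above *CHAC1* at 95.5. The last place of *ASNS* carries a limit, as all but 11 bases of its canonical transcript lie in exons of another gene.

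The rest of the pathway, taken from fixed lists of 84 genes that include the 10, was present in these cells. Of the 84 genes, 82 were listed, and *NUPR1* and *FGF21* were not. The median mean normalized count of the 82 was 3870, above the median of 1022 of the 10 genes alone, in counts not set per length. The 4 eIF2alpha kinases, which start the response, all lay in the upper quartile of all listed genes by mean count. *EIF2AK1*, the heme-regulated kinase HRI, had 9020, *EIF2AK4*, the amino acid sensor GCN2, had 4954, *EIF2AK2*, the double-stranded RNA sensor PKR, had 3868, and *EIF2AK3*, encoding PERK, had 2961. Against protein-coding genes alone, whose upper quartile began at 3217, *EIF2AK3* fell short of it. Per kilobase of the longest transcript, *EIF2AK2* had 383, above 69.4% of genes and below the 627 of *EIF2AK3*. The subunits of eIF2 and of its exchange factor eIF2B all lay above the median of all genes, 8 of 8, from *EIF2B3* at 933 to *EIF2S3* at 8907. The phosphatase subunits ranged from *PPP1CA* at 4945 to *PPP1CB* at 13704, and 5 of 5 lay in the upper quartile of genes.

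**Figure D2:**
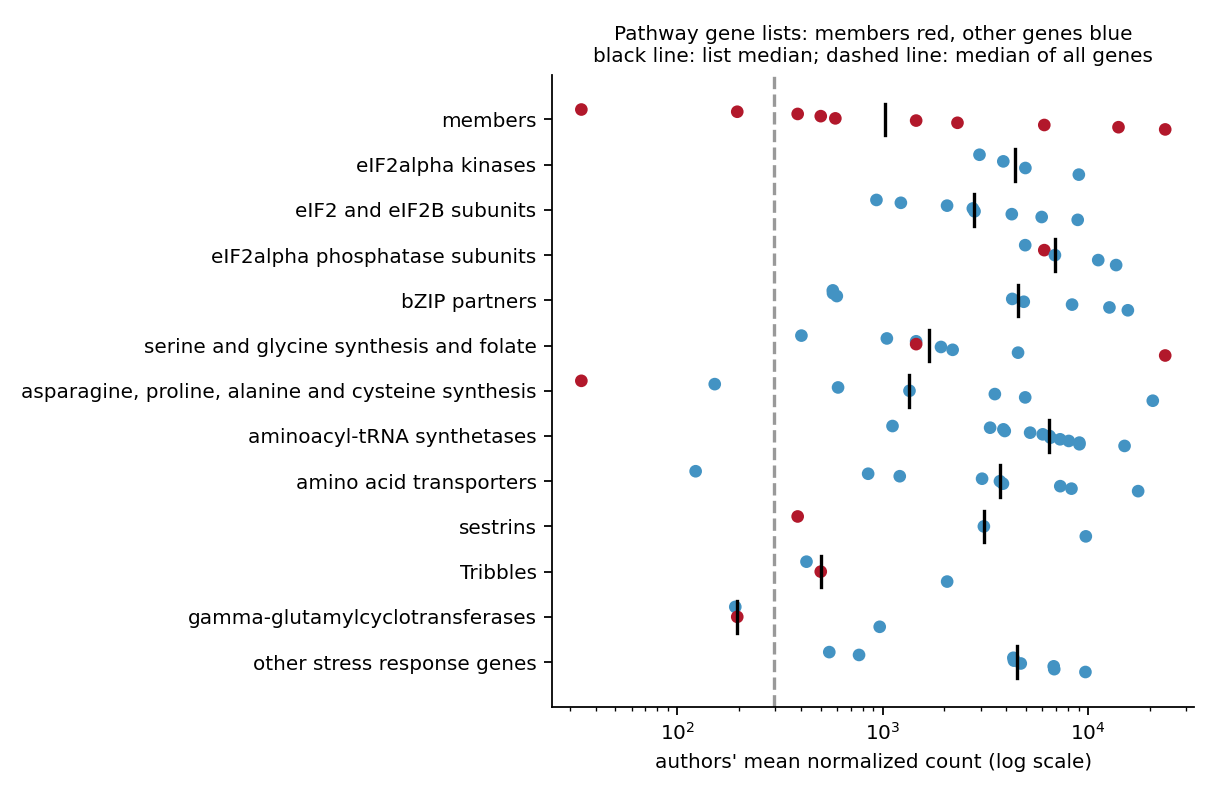
Authors' mean normalized count (log axis) of the listed genes of each pathway list, with the 10 stress response genes in red and other genes in blue. Black lines mark list medians and the dashed line the median of all genes, 297. *ASNS*, at 34.1, stands to the left of every other pathway gene, the next being *SLC7A3* at 123. The canonical *ASNS* transcript lies almost wholly in exons of another gene.

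The targets of ATF4 in amino acid metabolism were mostly abundant. All 13 aminoacyl-tRNA synthetases, which charge tRNAs, lay above the median of all genes, with a median of 6484 and a range from *CARS1* at 1117 to *IARS1* at 15061. Of 9 amino acid transporters, 8 lay above it, with *SLC38A2* highest at 17538 and *SLC7A3* lowest at 123. The serine, glycine and folate list, to which *PHGDH* and *PSAT1* belong, had a median of 1690, from *SHMT1* at 402 to *PHGDH*. The list of asparagine, proline, alanine and cysteine synthesis had a median of 1351. *ALDH18A1*, which starts proline synthesis, had 20666. *ASNS* was the lowest, with the limit on its count set out in the next paragraph, and 5 of 7 genes lay above the median. The transcription factors that can pair with ATF4 and other basic leucine zipper factors ran from *CEBPD* at 572 to *NFE2L1* at 15628, with 8 of 8 above the median of all genes and 5 of 8 above that of protein-coding genes. Among other stress response genes, 8 of 10 were listed, from *VLDLR* at 550 to *GDF15* at 9713. Against the median of protein-coding genes, 1077, the counts were 62 of the 82 pathway genes, with 13 of 13 synthetases, 7 of 9 transporters, 7 of 8 eIF2 and eIF2B subunits, 6 of 8 genes of the serine list, 4 of 7 of the asparagine list and 6 of 8 other stress response genes. Per kilobase of the longest transcript, the list medians were 507 for transporters, 491 for the serine list and 429 for the asparagine list. These lay below the 606 of the 10 genes, although the same lists lay above the 10 genes in mean count. The synthetases, at 1272, the leucine zipper factors, at 1375, and the other stress response genes, at 1175, stayed above.

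The annotation set *ASNS* apart. In GENCODE v44 on GRCh38, *ASNS* lies on the minus strand at chr7:97851677-97872542. The long noncoding RNA gene ENSG00000284707 runs along it on the same strand, at chr7:97851688-97972985. Its exons cover 99.5% of the 2385 bases of the canonical *ASNS* transcript and leave 11 bases of that transcript uncovered. Of all 4896 exonic bases annotated for *ASNS*, 49.3% are shared and 2481 belong to *ASNS* alone. This overlapping gene is itself in the deposited table, with a mean normalized count of 107 against 34.1 for *ASNS*. Gene counting in STAR assigns no read that overlaps exons of more than 1 gene. Reads from bases shared in the annotation used would thus be counted for neither gene. The authors counted with an older release, in which this overlap was not examined. How much of the *ASNS* level such uncounted reads account for was not tested.

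**Figure D3:**
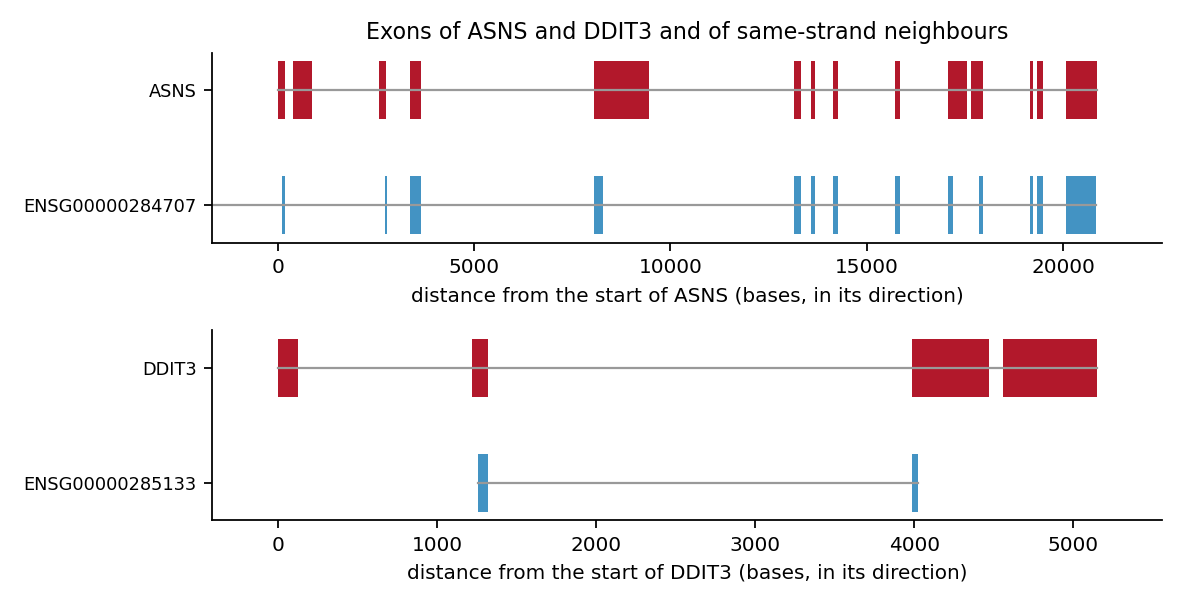
Exons (boxes) of *ASNS* and *DDIT3* (red) and of same-strand genes that share exonic bases with them (blue), drawn by distance in bases from the start of *ASNS* or *DDIT3*. ENSG00000284707 shares 2415 exonic bases with *ASNS*, and ENSG00000285133 shares 105 bases with *DDIT3*.

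For the other members, overlaps on the same strand were smaller or absent. *DDIT3*, on the minus strand at chr12:57516588-57521737, shares 11.6% of its canonical transcript with a same-strand coding gene, ENSG00000285133, which was not in the table. Counting genes on either strand, with *MARS1* and *MBD6* added, the shared part is 35.9%. *ATF5*, at chr19:49928702-49933935, shares 3.69% on its own strand with the microRNA gene *MIR4751* and 13.5% on either strand, mainly with *NUP62*. The library kit named in the labels is not the directional version, and the strand setting in counting is not given in the sources used here. Reads of *DDIT3* and *ATF5* from the parts they share with genes on the other strand therefore cannot be told apart from those genes' reads. Counting that ignores strand would assign such reads to neither gene, by the rule given above. The effect on the values of *DDIT3* and *ATF5* was not tested. The remaining 7 genes share no exonic base with another gene. *ATF4* at chr22:39519695-39522683, *ASNS* and *PSAT1* at chr9:78297125-78330093 each have 4 pseudogenes named after them in this annotation, none of which was in the table, and reads common to a gene and its pseudogene cannot be assigned with certainty.

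Over the 15355 listed protein-coding genes, classes of shared exons were formed after the *ASNS* value was seen. The 13487 genes that share no base of their canonical transcript on the same strand had a median mean normalized count of 1153, and 52.9% of them exceeded 1000. The 174 genes that share 90% or more had a median of 45.0, with an interquartile range of 15.0 to 163, and 9.20% of them exceeded 1000. *ASNS* belongs to the latter class and lies within its interquartile range. It was the single gene among the 82 pathway genes to share 50% or more. These classes describe genes of different kinds and were not tested.

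**Figure D4:**
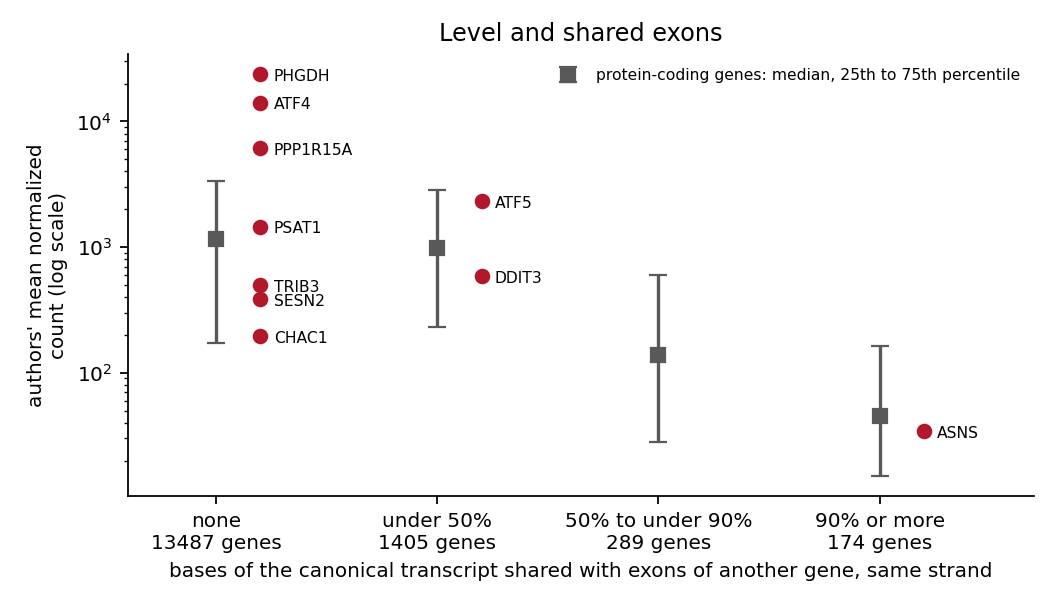
Authors' mean normalized count (log axis) of listed protein-coding genes by the share of their canonical transcript that also belongs to exons of another gene on the same strand, as median (square) and 25th to 75th percentile (bars). Red points are the 10 stress response genes. *ASNS* is the only red point in the class of 90% or more, whose median is 45.0.

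The leaders of these mRNAs, the stretch ahead of the coding sequence, differed among the 10 genes. An upstream AUG, the start of a short reading frame, occurred in the canonical transcript of 6 of the 10 genes, against 42.5% of 15301 listed protein-coding genes. Of the other 72 pathway genes, 37.5% had one. These included the enzyme gene *PSPH*, with 6, whereas the transcription factor gene *ATF3* had 0. The canonical transcripts of *ATF4*, *ATF5*, *DDIT3*, *TRIB3*, *SESN2* and *PPP1R15A* held at least 1, and those of *CHAC1*, *ASNS*, *PSAT1* and *PHGDH* held none. The 4 leaders without one were between 86 and 117 bases long. The 6 with one were between 177 and 410 bases long. Long leaders hold more upstream AUGs in general, and among listed genes with a leader over 208.5 bases, the median of the 10, the share was 76.2%.

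A reading frame that begins upstream and runs past the true start in another frame occurred in 3 of the 10, *ATF4*, *ATF5* and *DDIT3*, the transcription factors of the group. It occurred in 13.3% of listed protein-coding genes, in 20.1% of those with the longer leaders, and in 3 of the other 72 pathway genes. Ribosomes that translate such a frame pass over the coding start. All upstream start sites of *ATF4* and *ATF5*, but only the third of *DDIT3*, are shown with up to 10 bases on each side. They are shown because the mRNAs of *ATF4*, *ATF5* and *DDIT3* each hold a frame that runs past the coding start. The ATG is in capitals, as read from GENCODE v44.
ATF4, the first: ccgcccacagATGtagttttctc
ATF4, the second: cacggccaccATGgcgtattagg
ATF4, the third: ggcttaagccATGgcgcttctca
ATF5, the first: agccccggccATGgctctgtagc
ATF5, the second: tgctgcagccATGgagtcttcca
DDIT3, the third: ctgaaagcagATGtgcttttcca

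In *ATF4* the first upstream ATG is followed at once by a stop codon. The second, 196 bases ahead of the coding start, opens a frame of 3 codons. The third, 97 bases ahead, opens one of 59 codons that ends 83 bases inside the coding sequence. *ATF5* has the same order of frames. Its first, 246 bases ahead, also has 3 codons, and its second, 124 bases ahead, also has 59 codons and ends 56 bases inside the coding sequence. A short frame followed by a long overlapping one is the arrangement known to delay translation of *ATF4* until eIF2alpha is phosphorylated.

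*DDIT3* differs in that its first and second upstream ATG share a frame of 34 and 31 codons and one stop codon, 38 bases ahead of the coding start. The third opens 73 codons and begins only 32 bases ahead of the coding start. The upstream frames of *PPP1R15A*, of 22 and 26 codons, end before the coding start, the nearer by 26 bases. Those of *TRIB3*, of 77 and 14 codons, and that of *SESN2*, of 19 codons, end before it too. All of these are features of the reference transcript. RNA levels of this kind say nothing of how much protein was made.

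**Figure D5:**
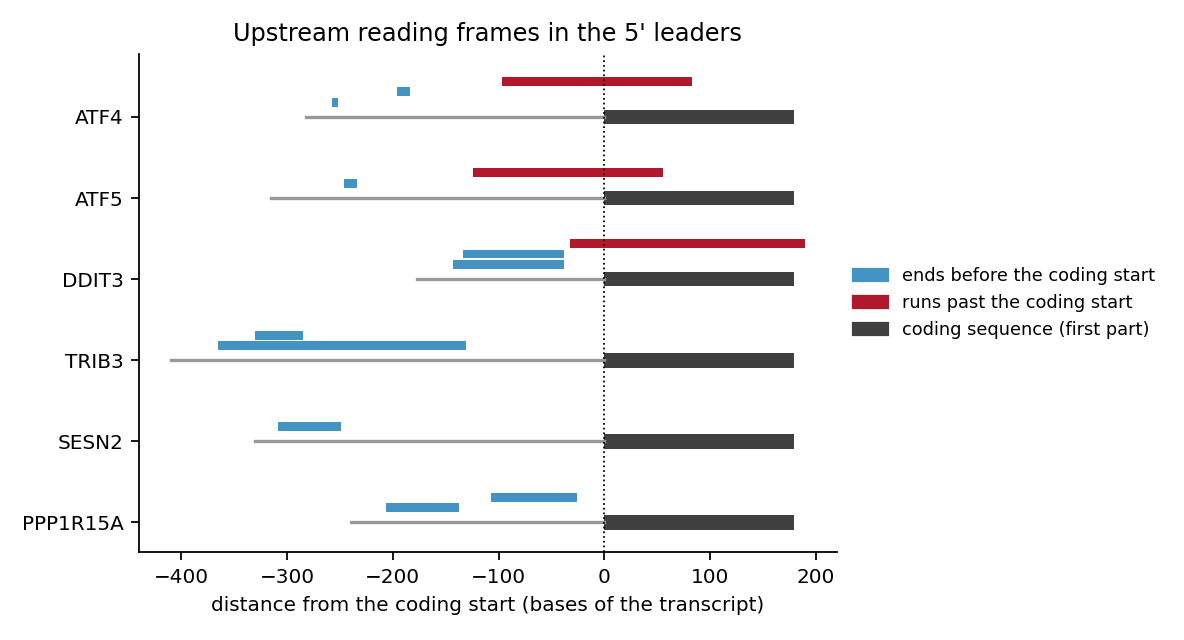
Upstream reading frames in the canonical transcripts of the 6 stress response genes that have any, by distance in bases from the coding start (dotted line). Blue bars end before the coding start, red bars run past it in another frame, grey lines are leaders and dark bars the first part of the coding sequence. The red bars belong to *ATF4*, *ATF5* and *DDIT3*.

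ATF4 binds DNA together with C/EBP factors at a composite element written here as TGATGNAA. Promoter windows of RefSeq on GRCh38.p14, from 250 bases before to 50 after each annotated start, were searched for it on both strands. All 10 genes had at least 1 window. The element was found in 2 of them, *ASNS* and *CHAC1*, against 4.46% of the 27305 genes with a window. Among the other pathway genes, 56 of 72 had a window, and 18 of these, 32.1%, held the element. They included *ATF3*, *CEBPG* and *PPP1R15B*, the synthetase genes *AARS1*, *CARS1*, *GARS1*, *IARS1*, *MARS1*, *NARS1* and *TARS1*, and the transporter genes *SLC1A4*, *SLC1A5*, *SLC3A2* and *SLC7A1*. Genes known as targets of ATF4 were among those chosen for these lists, beside kinases, subunits and paralogs. This share is therefore not independent of the element.

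The matches in the members are shown with 10 bases on each side and the element in capitals, so that the letters matched can be read. They are letter matches, and binding of ATF4 was not measured. *CHAC1*, *DDIT3* and *SESN2* carry it on the reverse strand. Those of *DDIT3* and *SESN2* lie outside the RefSeq windows and were found from 500 bases before to 100 after the start of the canonical transcript, a window chosen after the first result was seen.
ASNS: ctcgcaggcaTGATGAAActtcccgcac
CHAC1: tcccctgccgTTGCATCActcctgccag
DDIT3: ttgccaaacaTTGCATCAtccccgcccc
SESN2: tgaagtccctTTTCATCAcgcaacccta

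The *ASNS* match lies at chr7:97872469-97872476, 68 bases before the start, and the *CHAC1* match at chr15:40953262-40953269, 209 bases before. The *DDIT3* match lies at chr12:57520813-57520820, 306 bases before the start, and the *SESN2* match at chr1:28259222-28259229, 296 bases before. In the wider window 4 of the 10 genes held the element, against 5.20% of 20033 protein-coding genes. *CHAC1* and *DDIT3* carry the stricter form TGATGCAA. *ATF4*, *ATF5*, *TRIB3*, *PSAT1*, *PHGDH* and *PPP1R15A* had no match in either window, which says only that these letters do not occur there.

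*PPP1R15A* instead held TGACGTCA, the cyclic AMP response element, at chr19:48872363-48872370, 58 bases before its start. It was the only one of the 10 to do so in the RefSeq windows, where 2.25% of genes had it.
PPP1R15A: cctctcttcgTGACGTCAgcacgccggg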

How the data were processed

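Poly(A) RNA was sequenced from 18 samples. According to the paper and the processing notes, the authors aligned reads to hg38 with STAR 2.7.2d, counted them per gene and compared the matrices with DESeq2 1.34.0. The deposited table holds the authors' mean normalized count, a signal averaged over samples by the authors, which was identical at the 3 times of a gene. It also holds 5 columns of the authors' own comparisons of LN411 with FN (log2 fold change, its standard error, test statistic, p-value and adjusted p-value), which were not used here. Values for each sample were not used here, so that depth per library is unknown, no error could be given and no test was made. The planned count model gave way to a description.

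Percentiles are the share of listed genes with a lower value. Identifiers were matched to GENCODE v44 for 99.6% of genes; the authors' own annotation was an older release. Shared exons, leaders and upstream reading frames came from that annotation, the canonical transcript being the one Ensembl marks, and promoters from RefSeq. The search code was tested on simulated sequences. The named genes were all 10 members, the kinases, sestrins, Tribbles, gamma-glutamylcyclotransferases and *PPP1R15B*, and the highest and lowest gene of each list. Others, such as *PSPH* and the genes with a promoter element, were named after their values were seen. The members and lists were chosen with earlier results of these data known. Alternatives were other sets of reference genes, transcript lengths, motifs and windows. Calculations used Python 3.11.15, numpy 2.4.6 and pandas 2.3.3.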

Additional observations from a re-analysis of the deposited data

How the results depend on the processing

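The number of the 10 genes above the median level was 8 over all listed genes, 5 when the median was taken over genes listed at all 3 times, and 5 over protein-coding genes. It was 6 over genes whose mean count was at least 10, and 9 per kilobase. The first 3 alternatives move the median, by their construction, and not the members, whereas the scale per kilobase divides each member by its own length and brought *CHAC1* above the median. When length was the union of exons in place of the longest transcript, 6 of the 10 genes kept their place in the order per kilobase, with *ATF4* above *PHGDH* and *SESN2* above *CHAC1*. With coding length all 10 kept it. The count of genes with the element in the RefSeq windows, 2, became 1 with TGATGCAA alone and 1 on the forward strand alone, and it was 4 in the wider window, which was added after the data were seen.

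No paired analysis was possible because the table gives no values for single samples. For the same reason the planned second count model, the replicate block and the fits without single replicates were not run. The depth of single libraries is unknown, and the means have no error, so that differences in level between genes of similar value cannot be ranked with confidence.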
